A study of Drosophila melanogaster with 12 samples.

Results

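Ovaries of flies that carry the v allele of su(Hw) were set against ovaries of flies without it. The v carriers were chosen by genotype label and made up 6 of the 12 arrays, 3 of su(Hw)f/su(Hw)v females (f/v) and 3 of su(Hw)2/su(Hw)v females (2/v). The 6 arrays without v were 3 of Canton S wild type (WT) and 3 of su(Hw)Pb/su(Hw)2 females (Pb/2). Per the labels f/v and WT females are fertile and 2/v and Pb/2 females are sterile, so each side of the comparison holds 1 fertile and 1 sterile genotype. The Pb/2 and 2/v females share allele 2, and all groups other than WT are su(Hw) mutants. Each array was made from a pool of about 150 ovary pairs of virgin females aged 4 to 6 h, so the p-values measure the spread between pools, which may be technical. Because su(Hw) lies on chromosome 3, the f/v and 2/v females also share the rest of the chromosome that bears v, and the allele, that chromosome and the strain background cannot be told apart in these groups. Each genotype was 1 combination of stocks. Among 9109 genes tested, 178 were called the same way in all 4 pairs of a carrier and a non-carrier genotype.

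Su(Hw) is a zinc finger protein that binds DNA and recruits partner proteins to the gypsy insulator, a sequence that limits contact between enhancers and promoters. In the ovary it is needed in the germline, where egg chambers without it die in mid-oogenesis and where it keeps a set of genes that are normally used in neurons at a low level. Alleles of su(Hw) are often studied over one another, since a recessive change elsewhere on one chromosome is then covered by the other.

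Levels are normalized array signals without unit, and differences are on the log2(signal + 16) scale as carriers minus non-carriers, with the standard error of the limma fit over all 12 arrays. That scale understates changes of dim genes. Background was set at 61.97, the signal that 95% of the 27 bacterial control probe sets do not exceed, and 57.8 to 63.6% of the probe sets of an array lay above it. Array medians were 98.4 to 134 before normalization. The hybridization controls, added in fixed amounts, read 1.048 to 1.075 times as high in the v carriers as in the others, and BioB averaged 4177 in f/v and 4754 in 2/v, against 3374 in WT and 5146 in Pb/2. In bulk ovaries, fewer cells of a type and less RNA per cell cannot be told apart.

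The su(Hw) transcript did not follow the v allele. It read 2912, 2708 and 2591 in f/v and 85.1, 129 and 81.4 in 2/v, against 3862, 3561 and 3999 in WT and 85.8, 153 and 212 in Pb/2. The carriers held both a high and a low genotype, and so did the non-carriers. The average difference, the v contrast, was -0.48 ± 0.18 and missed the threshold (limma adjusted p = 0.0581). Rbp9, an RNA-binding protein gene of the Elav family that Su(Hw) represses in the ovary, averaged 2665 in f/v and 9170 in 2/v, against 3583 in WT and 8258 in Pb/2, and was not called in the v contrast (-0.14 ± 0.08, adjusted p = 0.192). The neighbouring gene RpII15 had 0 assigned probe sets and was not analysed here.

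By direction alone, the deposited linear group means went the same way in all 4 pairs for 3152 genes (34.6%), 1458 higher and 1694 lower in the carriers. With the test, 178 genes were called in all 4 pairs (1.95% of the genes tested), 86 higher (0.944%) and 92 lower (1.01%) in v carriers. The single pairs called far more genes, 35.3% in f/v against WT, 20.5% in f/v against Pb/2, 46.5% in 2/v against WT and 20.4% in 2/v against Pb/2. The v contrast called 35.7% of genes, 19.2% higher and 16.6% lower. Its 3254 genes included 595 that moved in opposite directions in the fertile and the sterile pair. All 6 carrier arrays lay above or below all 6 others for 543 genes (5.96%), and for 177 of the 178 called genes, with Pgant3 as the exception. The count of called genes was 103 without f/v replicate 2, 113 without 2/v replicate 1, 86 without Pb/2 replicate 1 and 117 without Pb/2 replicate 2. Scaled to the hybridization controls it was 43 (14 higher, 29 lower), and on the deposited values 158 (58 higher, 100 lower).

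The fertile pair, f/v and WT, and the sterile pair, 2/v and Pb/2, share no arrays. Of 3211 genes called in the fertile pair, 547 (17.0%) were called the same way in the sterile pair, which is 29.4% of the 1859 genes called there. Another 398 genes were called in both pairs with opposite signs, 12.4% of the first list and 21.4% of the second. Across the 9109 genes, which are not independent replicates, the differences of the fertile and the sterile pair correlated at -0.0012 (Pearson) and 0.11 (Spearman), and 57.4% of genes had the same sign. The other pairs used to define the 178 genes, f/v against Pb/2 and 2/v against WT, share arrays with these.

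**Figure D1:**
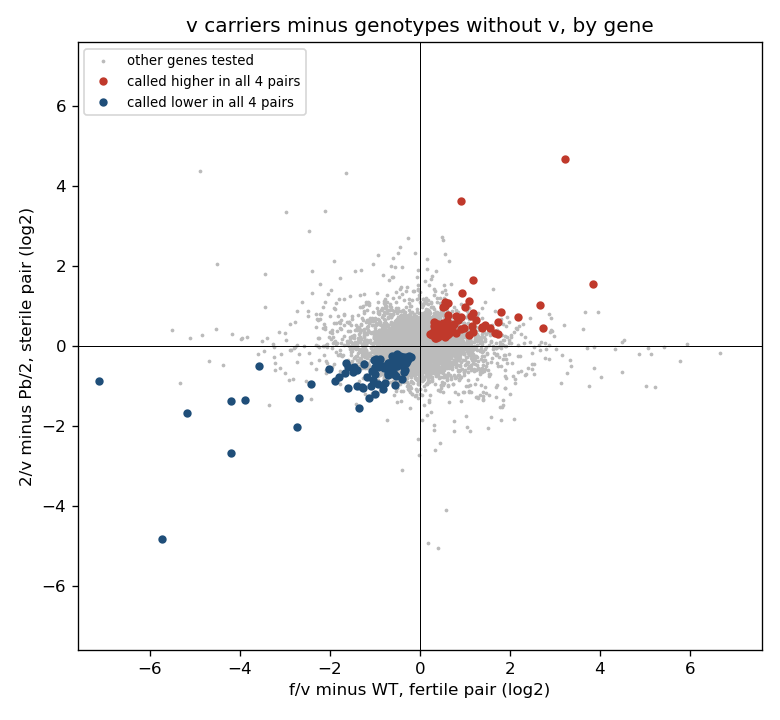
Difference of each tested gene in the fertile pair (f/v minus WT, x axis, log2) against that in the sterile pair (2/v minus Pb/2, y axis, log2). The 86 red points (higher in carriers) and 92 blue points (lower) were called in all 4 pairs, and across all 9109 genes both differences correlated at -0.0012.

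Most of the 178 differences were small. The size of the v contrast ran from 0.24 to 5.27 with a median of 0.60, against a median of 0.18 over all genes tested, and 40 genes differed by at least 2-fold, 15 higher and 25 lower. The genes just inside the threshold were Bet3 and Pxn, with a highest adjusted p over the 4 pairs of 0.0494 and 0.0495. Just outside it were Hmg-2 (0.0506) and nudE (0.0508).

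In the v contrast on the log2(signal + 16) scale the largest fall among the 178 genes was that of CG4210, although CG42565 fell more in f/v against WT. CG4210 read 17.9, 2.29 and 32.4 in f/v and 9.22, 8.12 and 45.2 in 2/v, against 1697, 1605 and 1581 in WT and 886, 889 and 1005 in Pb/2. Every carrier array lay below background and every other array far above it. CG4210 was at least 26.3-fold lower in f/v and in 2/v than in WT and at least 14.9-fold lower in both than in Pb/2 (highest adjusted p of the 4 pairs 4.97e-05).

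Caf1-55 encodes the WD40 protein p55, a histone chaperone subunit found in chromatin assembly factor 1, in the nucleosome remodelling factor NURF and in Polycomb repressive complex 2. It read 1474, 1370 and 1492 in f/v and 1304, 1404 and 1486 in 2/v, against 9235, 10023 and 9536 in WT and 6004, 5929 and 5273 in Pb/2. The 2 carrier genotypes overlapped each other and lay well below both others, by -2.37 ± 0.05 (adjusted p = 4.06e-09). The fall was 2.72 in the fertile pair and 2.02 in the sterile pair, each with an error of 0.08. On every carrier array the Caf1-55 signal stayed far above background.

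CG18545 read 101, 87.0 and 80.4 in f/v and 114, 88.9 and 113 in 2/v, against 1794, 2181 and 1779 in WT and 874, 742 and 662 in Pb/2. Again both carrier groups overlapped and sat just above background, and the v contrast was -3.43 ± 0.09 (adjusted p = 6.54e-09). CG42788 had a smaller fall, with 99.3, 135 and 102 in f/v and 155, 167 and 139 in 2/v, against 294, 312 and 283 in WT and 324, 353 and 314 in Pb/2 (-1.16 ± 0.08). CG42788 was chosen after its values were seen, and its second probe set differed by 0.06 ± 0.12 and was not called (adjusted p = 0.79).

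For other large falls the signal of WT stood above that of all 3 mutant genotypes. CG42565 read 50.6, 50.3 and 30.4 in f/v and 332, 257 and 403 in 2/v, against 7915, 8577 and 8183 in WT and 591, 638 and 594 in Pb/2. It was at least 133-fold lower in f/v than in WT, while 2/v differed from Pb/2 by -0.87 ± 0.17 (adjusted p = 0.00675). A second probe set of CG42565 averaged 43.5, below background, and differed by 0.31 ± 0.34. CG17977 averaged 77.0 in f/v and 71.7 in 2/v, against 579 in WT and 195 in Pb/2 (-1.98 ± 0.10). CR44101 averaged 51.5 in f/v and 79.7 in 2/v, against 339 in WT and 167 in Pb/2 (-1.67 ± 0.11). Carrier arrays below background numbered 1 for CG17977 and 2 for CR44101. CG14879 was far lower in f/v, with a mean of 280, than in 2/v, which averaged 1782, against 3540 in WT and 2543 in Pb/2.

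The 10 largest falls included 3 digestive enzyme genes of the gut list. Bace, an aspartic protease related to the mammalian beta-secretase, read 22.3, 68.2 and 30.1 in f/v and 79.2, 64.8 and 60.1 in 2/v, against 2022, 1636 and 2061 in WT and 207, 226 and 338 in Pb/2 (-3.43 ± 0.19, adjusted p = 9.29e-07). Bace was below background on 3 of the 6 carrier arrays. Jon65Aiii, a serine protease of the Jonah family, averaged 201 in f/v and 166 in 2/v, against 3897 in WT and 452 in Pb/2 (-2.78 ± 0.14). The trypsin gene betaTry averaged 39.1 in f/v and 48.5 in 2/v, against 743 in WT and 138 in Pb/2 (-2.61 ± 0.29). Both carrier means of betaTry lay below background, as did 3 of its 6 carrier arrays. The call of betaTry was lost with any 1 of 9 arrays left out (WT replicates 1, 2 and 3, f/v 2 and 3, 2/v 1 and 2, Pb/2 1 and 2), with a v contrast of -2.72 to -2.38 in those fits. Another Jonah protease, Jon44E, went the other way. It averaged 321 in f/v and 294 in 2/v, against 142 in WT and 127 in Pb/2, and rose by about the same amount in the fertile (1.09 ± 0.18) and the sterile pair (1.12 ± 0.18). Jon44E was named after its values were seen.

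The gut list as a whole separated WT from the rest and not carriers from non-carriers. The summed signal of its 22 tested members was 3870 to 4586 in f/v and 3723 to 4005 in 2/v, against 19519 to 21167 in WT and 2489 to 2690 in Pb/2. The median difference of the list was -1.89 in the fertile pair and 0.52 in the sterile pair. In all 4 pairs 3 members were called lower and 1 higher, beside 1.01% and 0.944% of all genes. In the v contrast 11 were lower and 4 higher, beside 16.6% and 19.2% of all genes. The interaction was called for 19 of the 22, beside 24.8% of all genes. None of the 22 members was below background on all 12 arrays. That was nearly fixed in advance, since genes were kept only above their array's 40th percentile, a level close to background, on at least 3 arrays. The part of gut tissue in the differences of Bace, Jon65Aiii and betaTry was not tested.

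The largest rise among the 178 genes was that of Tektin-C, a gene of the tektin family of filament proteins of cilia and sperm tails. It read 457, 619 and 522 in f/v and 780, 688 and 703 in 2/v, against 35.9, 68.5 and 28.4 in WT and 11, 15.5 and 12.6 in Pb/2. All carrier arrays were above background and 5 of the 6 others below it. Tektin-C was at least 9.81-fold higher in carriers (highest adjusted p of the 4 pairs 1.22e-06).

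The long non-coding RNA CR32368 (lncRNA:CR32368) read 863, 1061 and 1048 in f/v and 1421, 1160 and 1217 in 2/v, against 418, 416 and 444 in WT and 389, 379 and 403 in Pb/2. Both groups without v lay together, well below the carriers, and the v contrast was 1.42 ± 0.07 (adjusted p = 3.4e-07). CG31075 had a like pattern, with means of 3762 in f/v and 4509 in 2/v, against 1958 in WT and 1774 in Pb/2 (1.13 ± 0.08). The G protein-coupled receptor gene mth (methuselah), known for the long life of its mutants, averaged 4168 in f/v and 3102 in 2/v, against 1190 in WT and 1714 in Pb/2 (1.32 ± 0.05). The related receptor gene mthl8 read 405, 345 and 402 in f/v and 871, 950 and 909 in 2/v, against 10.1, 10.8 and 14.7 in WT and 308, 315 and 278 in Pb/2. WT lay below background for mthl8, so f/v was at least 6.17-fold and 2/v at least 14.7-fold higher than WT. Against Pb/2, f/v differed by only 0.34 ± 0.09 (adjusted p = 0.0245). A second mthl8 probe set averaged 413 in f/v and 297 in 2/v, against 34.0 in WT and 263 in Pb/2. Its v contrast was 1.65 ± 0.12, with 2/v only 0.17 above Pb/2, and it was not called in all 4 pairs. The call of mthl8 in all 4 pairs was lost in 11 of 25 alternative settings. These were the omission of f/v replicate 1 or 3 or of Pb/2 replicate 1 or 3, the deposited values, subtraction of the array median, an offset of 1, eBayes with trend and robust settings, the replicate block, an adjusted p below 0.01 and each pair on its own arrays. The v contrasts in those 4 omissions (2.67 to 2.71) rest on WT arrays below background.

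RpS10a, which encodes a second copy of ribosomal protein S10, was highest in 2/v. It read 419, 550 and 494 in f/v and 3261, 3182 and 3187 in 2/v, against 297, 211 and 247 in WT and 216, 265 and 247 in Pb/2. The carriers did not overlap the others, but the rise was 3.64 ± 0.13 in the sterile pair and 0.92 ± 0.13 in the fertile pair. Of the 39 cytoplasmic ribosomal protein genes tested RpS10a was the only one called in all 4 pairs, and the list had a median v contrast of 0.01.

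Further rises were largest against WT. CG6171 averaged 3314 in f/v and 3591 in 2/v, against 481 in WT and 2607 in Pb/2 (1.60 ± 0.04). CG14868 averaged 656 in f/v and 500 in 2/v, against 135 in WT and 300 in Pb/2 (1.45 ± 0.12), and its call was lost without Pb/2 replicate 1 or 2 (1.40 in both fits). CG34323 averaged 1826 in f/v and 1007 in 2/v, against 273 in WT and 473 in Pb/2 (1.85 ± 0.14). The glycosyltransferase gene beta3GalTII averaged 1091 in f/v and 1039 in 2/v, against 314 in WT and 677 in Pb/2 (1.17 ± 0.09). In each of these 4 genes the Pb/2 arrays lay between WT and the carriers.

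**Figure D2:**
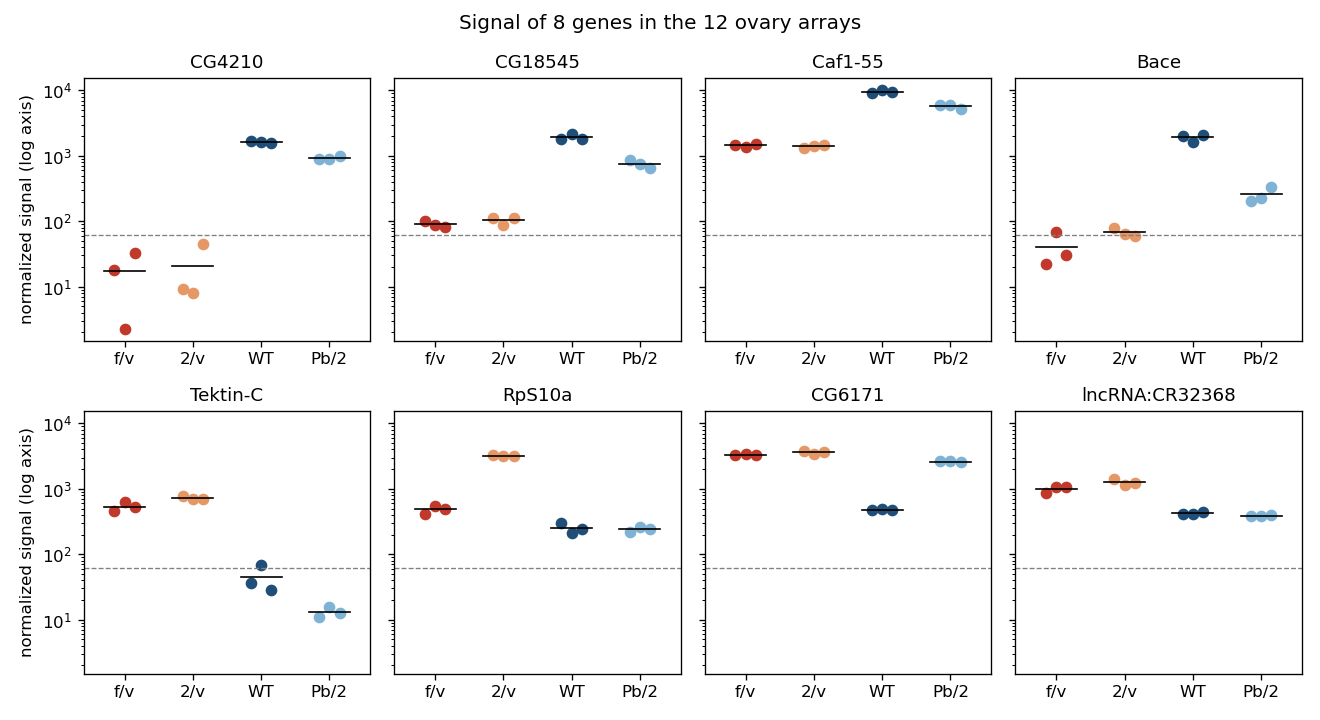
Normalized signal (log axis) of 8 genes on each array, with f/v and 2/v left of WT and Pb/2, black bars for group means and a dashed line at background (61.97). CG4210 and Tektin-C differ on opposite sides of background, Caf1-55 is low in both carrier genotypes while still well above it, and RpS10a is highest in 2/v.

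Further called genes were chosen after their values were seen, and Lsd-1 changed by nearly the same amount in both pairs. Lsd-1, which encodes a perilipin of the lipid droplet surface, read 1542, 1595 and 1424 in f/v and 1772, 1629 and 1651 in 2/v, against 674, 805 and 793 in WT and 861, 831 and 843 in Pb/2. Its rise was 0.99 ± 0.08 in the fertile and 0.98 ± 0.08 in the sterile pair. ND-13B, a subunit gene of mitochondrial complex I, read 8966, 10320 and 9788 in f/v and 7738, 8213 and 8525 in 2/v, against 17376, 16879 and 17279 in WT and 17773, 17002 and 16761 in Pb/2 (-0.95 ± 0.05, adjusted p = 4.7e-07). The WT and Pb/2 arrays overlapped in ND-13B, with means of 17178 and 17179.

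Also chosen in this way, kst, the gene of the apical beta-heavy spectrin, averaged 1630 in f/v and 1639 in 2/v, against 3467 in WT and 3189 in Pb/2 (-1.04 ± 0.12). Sse, the gene of the protease separase that releases sister chromatids, averaged 818 in f/v and 912 in 2/v, against 1263 in WT and 1328 in Pb/2 (-0.58 ± 0.05). Its partner gene thr averaged 627 in f/v and 536 in 2/v, against 1062 in WT and 772 in Pb/2 (-0.63 ± 0.06). fs(1)Ya, a maternal gene of the nuclear envelope, averaged 2043 in f/v and 2470 in 2/v, against 1326 in WT and 1595 in Pb/2 (0.62 ± 0.06). cort, which encodes a female meiotic activator of the anaphase promoting complex, averaged 2309 in f/v and 1742 in 2/v, against 1012 in WT and 1354 in Pb/2 (0.77 ± 0.08), and rose more in the fertile pair (interaction adjusted p = 0.00331). Small falls reached abundant genes as well, such as the translation initiation factor gene eIF4E1, with 14171 in f/v and 14034 in 2/v, against 17312 in WT and 16992 in Pb/2 (-0.28 ± 0.05).

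Whether the carrier difference was the same in fertile and sterile ovaries was tested by the interaction, (f/v minus WT) minus (2/v minus Pb/2). It was called for 2260 genes (24.8% of those tested) and for 53 of the 178 genes (29.8%). In 47 of those 53 the fertile pair differed more and in 6 the sterile pair. Over all 178 genes the fertile pair differed more in 126, with a median size of 0.64 against 0.50 in the sterile pair. Over all genes tested the medians were 0.25 and 0.20. The interaction was not called for 125 of the 178, which does not show that both pairs were alike.

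Of the 178 genes, 25 were called in all 4 pairs under each of 24 alternative settings that tested them, 9 higher and 16 lower. All 25 were also called with each pair fitted on its own arrays, and 10 of them with at least 2-fold required in each pair. They include CG4210, CG18545, Caf1-55, Bace, Jon65Aiii, Cyp4p1, ND-13B, kst and Sse among the falls. The rises among them include Tektin-C, lncRNA:CR32368, mth, CG31075, CG6171, Lsd-1 and obst-B. Of the 25 genes 14 lie on chromosome 3.

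**Figure D3:**
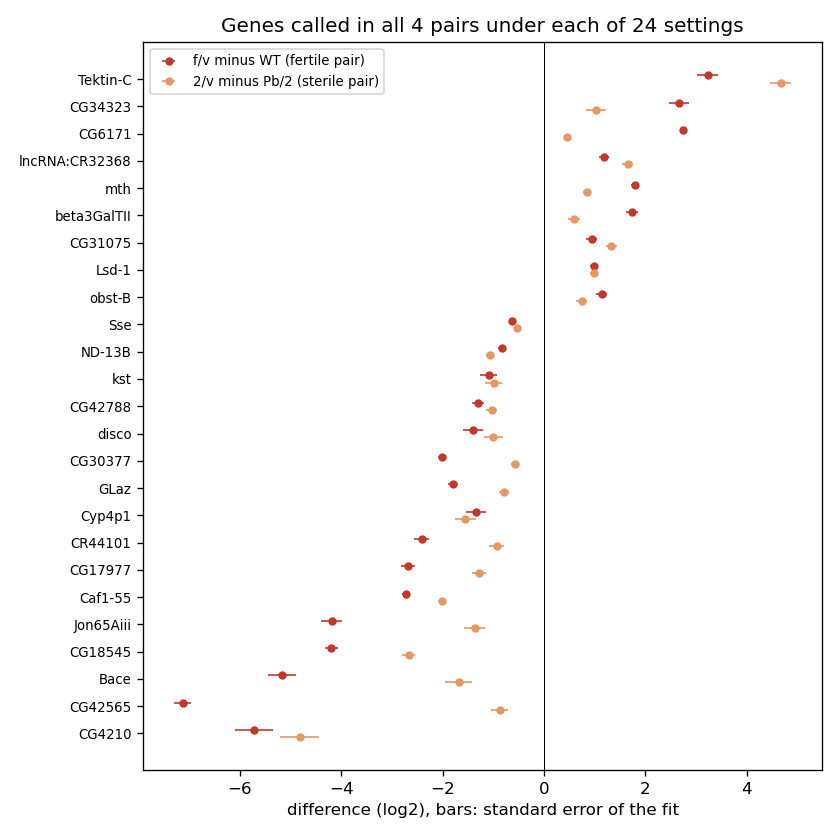
Differences (log2) of the 25 genes called in all 4 pairs under each of 24 settings, for the fertile pair (f/v minus WT, red) and the sterile pair (2/v minus Pb/2, orange), with bars for the standard error of the fit. Lsd-1 and kst have overlapping bars, and the fertile pair's point of CG42565 rests on f/v arrays below background, where it was at least 133-fold lower than WT.

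The 24 gene lists for ovarian cells, other tissues and gene families covered 508 tested genes, of which 18 (3.54%) were called in all 4 pairs, beside 1.95% of all genes tested, and 160 of the 178 called genes are in no list. No member was called among the insulator proteins (15 tested), ovary germline (24), meiosis and synaptonemal complex (15), follicle cell (15), muscle (20), fat body (10), heat shock and stress (9), esterase (11), RNA polymerase II subunit (6), heterochromatin and Polycomb (17) and DNA replication and endocycle (20) lists by limma, and at 1.95% of genes overall lists of this size hold too few genes to read from that. Their median v contrasts ran from -0.46 for muscle to 0.12 for meiosis, beside 0.02 over all genes. In the v contrast, which called 19.2% of all genes higher and 16.6% lower, the germline list had 4 higher and 3 lower, and the insulator list 2 higher and 3 lower.

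The muscle list set WT apart. In the v contrast 15 of 20 were lower and 1 higher, beside 16.6% and 19.2% of all genes. The median difference of the muscle list was -0.90 in the fertile and -0.05 in the sterile pair. Its summed signal was 74262 to 76990 in f/v and 67108 to 73405 in 2/v, against 129738 to 134588 in WT and 73540 to 75109 in Pb/2. Follicle cell genes had 7 of 15 lower in the v contrast and none higher, beside the same shares of all genes, with a median of -0.22. Their summed signal was 19410 to 22304 in f/v and 19840 to 21991 in 2/v, against 28511 to 31966 in WT and 22526 to 24026 in Pb/2. The summed nervous tissue signal instead followed fertility, with 5894 to 6284 in f/v and 31110 to 32404 in 2/v, against 9303 to 11651 in WT and 30338 to 31799 in Pb/2.

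Of 13 cell death genes 2 were lower in all 4 pairs, beside 1.01% of all genes, and none was higher. In the v contrast 3 members were higher and 2 lower, beside 19.2% and 16.6% of all genes, and the list had a median of 0.05. Damm, an effector caspase gene, averaged 92.8 in f/v and 75.6 in 2/v, against 316 in WT and 171 in Pb/2 (-1.32 ± 0.12). Dark, the Apaf-1 homologue that activates caspases, averaged 947 in f/v and 924 in 2/v, against 1209 in WT and 1210 in Pb/2 (-0.37 ± 0.07), and its call was lost without f/v replicate 2, 2/v replicate 1 or Pb/2 replicate 1 or 3 (-0.37 to -0.33). Its second probe set differed by -0.30 ± 0.13 and was not called. Of 21 piRNA and nuage genes armi, a helicase gene of piRNA production, was the only one called in all 4 pairs, beside 1.95% of all genes. In the v contrast 8 of the 21 were lower and 2 higher, beside 16.6% and 19.2% of all genes, with a list median of -0.16. The armi signal averaged 7701 in f/v and 8425 in 2/v, against 10610 in WT and 10869 in Pb/2 (-0.42 ± 0.06). The call of armi ended with array medians subtracted (-0.26), scaled to the hybridization controls (-0.49), with each pair on its own arrays and at an adjusted p below 0.01. Among genes named by rule, scaling to the hybridization controls also ended the calls of RpS10a, CG14879, Damm, Dark, Obp99a, GstD5, Ugt302K1 and Listericin. It likewise ended those of betaTry, ndl, Pxn, repo, Ugt305A1 and p. Obp99a, an odorant-binding protein gene, averaged 4799 in f/v and 8072 in 2/v, against 11303 in WT and 11068 in Pb/2 (-0.85 ± 0.07).

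Among genes for metabolism of foreign compounds, 8 of 62 P450 genes were higher and 16 lower in the v contrast, and 11 of 32 glutathione S-transferase genes higher and 4 lower, beside 19.2% higher and 16.6% lower over all genes. Of the 62 cytochrome P450 genes Cyp4p1 was called in all 4 pairs, with 97.8, 71.4 and 58.7 in f/v and 46.8, 51.9 and 88.0 in 2/v, against 212, 197 and 232 in WT and 197, 187 and 241 in Pb/2 (-1.45 ± 0.14, adjusted p = 5.29e-05). Cyp4p1 lay below background on 3 carrier arrays. Of 32 glutathione S-transferase genes GstD5 was higher, at 153 in f/v and 139 in 2/v, against 78.1 in WT and 82.7 in Pb/2 (0.75 ± 0.10). Of 22 UDP-glycosyltransferase genes Ugt302K1 was higher (0.77 ± 0.07), and Ugt305A1 was lower, with 2/v below background and at least 1.58-fold below WT and 1.62-fold below Pb/2. The antibacterial peptide gene Listericin was the only called one of 18 immune genes. It was at least 2.90-fold lower in f/v than in WT and at least 2.47-fold lower than in Pb/2, and averaged 91.6 in 2/v, against 154 in Pb/2.

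In the eye pigment list p (pink), a gene of pigment granule formation, was slightly higher (0.27 ± 0.04), which ended on the deposited values and when arrays were scaled to their median or to the hybridization controls (0.06 to 0.29 over all settings). The calls of 4 further list members rested on nearly every array. The calls of ndl, an eggshell protease gene (-0.63 ± 0.12), and of Pxn, the peroxidasin gene (0.49 ± 0.08), each ended when any 1 of 11 arrays was left out, all but 2/v replicate 2 for ndl and all but Pb/2 replicate 3 for Pxn (v contrasts -0.67 to -0.53 and 0.43 to 0.52). That of Ugt305A1 ended without any 1 of 10 arrays, all but f/v replicates 1 and 3, with v contrasts of -0.89 to -0.82 that rest on 2/v arrays below background. That of the glial gene repo ended without any 1 of 8, all but WT replicate 1 and replicate 2 of f/v, 2/v and Pb/2. The repo signal lay below background on all 6 carrier arrays, at least 1.2-fold below the others, and its v contrasts in those fits (-0.77 to -0.61) rest on these arrays. Pxn went against most of its hemocyte and basement membrane list, which had a median v contrast of -0.23. Of its 20 tested members 1 was higher and 8 were lower in the v contrast, beside 19.2% and 16.6% of all genes.

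Position was not used to choose the genes. su(Hw) lies on the right arm of chromosome 3, and 109 of the 178 genes (61.2%) lie on chromosome 3, beside 43.9% of the genes tested. The share was 55.3% without f/v replicate 1 and up to 64.1% without f/v replicate 2. On arm 3L 50 of 1761 tested genes were called (2.84%) and on 3R 59 of 2241 (2.63%). The shares were 0.715% on X (11 of 1538), 1.35% on 2L (22 of 1633), 1.63% on 2R (30 of 1837) and 5.36% on chromosome 4 (3 of 56). On X 10 of the 11 called genes were higher. Chromosome 3 held 43.1% of the genes called in f/v against WT, 51.7% in f/v against Pb/2, 43.5% in 2/v against WT, 46.0% in 2/v against Pb/2 and 42.4% of those with an interaction. Among the 40 called genes of at least 2-fold, 21 (52.5%) lie on chromosome 3 and 12 (30.0%) on 2R. Arms and gene order follow Release 6 plus ISO1 MT as given by RefSeq, matched by gene, and 3 called genes had no arm there.

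**Figure D4:**
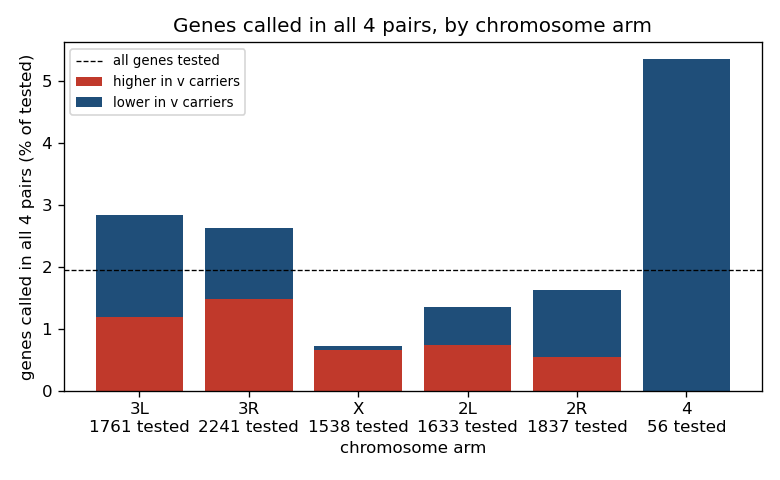
Percentage of tested genes called in all 4 pairs on each chromosome arm, stacked as higher (red) and lower (blue) in v carriers, with a dashed line at 1.95% for all genes tested. Arms 3L and 3R lie above the line and X, 2L and 2R below it, while chromosome 4 rests on 3 called genes.

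The called genes were spread along 3R, and whether they crowd near su(Hw) was not tested. By limma none of the 40 tested genes within 20 places of su(Hw) was called in all 4 pairs, and none reached an unadjusted p under 0.05 in all 4 with 1 sign. At 2.63% of genes called over 3R, 40 genes are too few to read from that. In the v contrast 2 of these 40 were higher and 11 lower, beside 19.2% and 16.6% of all genes. Within 50 places 3 of 100 tested genes were called (3.0%), within 100 places 8 of 200 (4.0%) and within 200 places 12 of 400 (3.0%). The nearest called genes were CG31517, 22 places before su(Hw), and CG9297, 27 before.

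A stretch marked out after its values were seen, ran from CG42788, 48 places after su(Hw), to CG14868 at place 100. It holds 53 tested genes, of which 5 were called (9.43%), beside 2.63% over 3R and 1.95% of all genes. Both of its ends were set at called genes, which raises that share, and whether it is a cluster was not tested. The called genes are CG42788, CG4210 (place 60), Caf1-55 (65), CG6171 (98) and CG14868. The first 3 were lower and the last 2 higher. Between CG4210 and Caf1-55 lie SIDL, CG12241, Polr2G and CG31344, whose v contrasts were 0.18, 0.22, 0.07 and 0.37, of which that of CG31344 passed the test (adjusted p = 0.0128). Art3, just after Caf1-55, differed by -0.04. Cp190, the gene of a Su(Hw) partner at the gypsy insulator, lies at place 75 and was not called in all 4 pairs, although its v contrast passed the test (-0.44 ± 0.09, adjusted p = 0.0043).

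**Figure D5:**
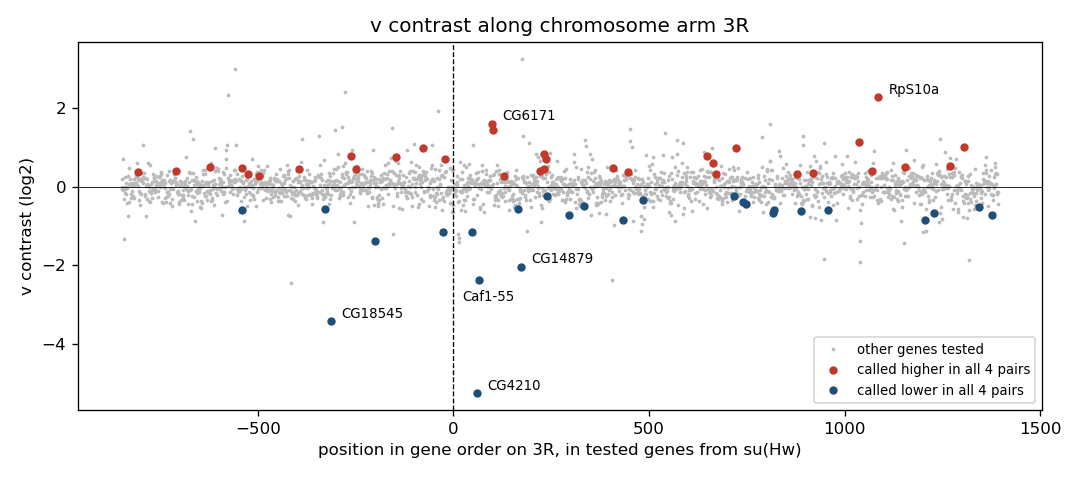
The v contrast (log2) of each tested gene on arm 3R against its place in gene order, counted in tested genes from su(Hw) (dashed line). Called genes (red higher, blue lower) occur along the whole arm, none within 20 places of su(Hw), and CG4210 and Caf1-55 lie at places 60 and 65.

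Further probe sets, 14 in all, were measured for 10 called genes, and the other 168 genes rest on 1 probe set each. Of the 14, 11 went the same way as the chosen probe set, 7 of them with a call in the v contrast. All 14 differed less, and none was called in all 4 pairs. For mbl, the gene of the splicing factor Muscleblind, 5 further probe sets differed by -0.82 to -0.26, against -1.15 for the chosen one. The 3 that went the other way belong to CG33232 (0.09), CG42565 (0.31) and CG42788 (0.06), and none of them was called.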

How the data were processed

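Linear intensity values of 12 Affymetrix Drosophila Genome 2.0 arrays were deposited, made by the authors with GCOS per the submitters' processing notes; its version is not given in the sources used here. Per the labels' protocols, 50 ng of TRIzol-extracted RNA was amplified by single primer isothermal amplification. Source name and description say embryos, while tissue, title and protocol say ovary, and ovary is used here. Each array had a 2% trimmed mean of 1500. Of 18952 probe sets 183 are controls and were left out, 13647 carry 1 gene, 402 several and 4720 none. Gene numbers gave current symbols for 13544 probe sets.

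Intensity was transformed as log2(signal + 16) and quantile normalized, because array medians differed by 0.393 (log2; limit 0.1). A probe set was kept if it exceeded its array's 40th percentile on at least 3 arrays, and the brightest single-gene probe set stood for each gene (9109 genes). A model of the 4 group means was fitted over all 12 arrays (R 4.3.3, limma 3.58.1), with Benjamini-Hochberg adjusted p below 0.05 as the call. Tables and figures used Python 3.11.15, pandas 2.3.3 and matplotlib 3.10.9. The number of arrays limits the precision. The fit was tested on simulated data. Where a whole group lies below background, the fold against it is a bound (at least N-fold), from the mean of the brighter group and, for each array of the dimmer one, the higher of background and its signal; fitted values of such genes depend on the offset.

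The contrasts, gene lists and alternatives were chosen with earlier results of these data known. Named are su(Hw), RpII15 and Rbp9, the 10 largest rises and 10 largest falls among called genes whose carrier and other arrays do not overlap, up to 2 called genes per list, and called genes within 20 tested genes of su(Hw); other genes named were chosen after their values were seen. Same-numbered arrays of different groups correlated at -0.1535 to 0.0987 after removal of group means (18 pairs, 0 above 0.1), so replicates were not paired. Alternatives were other normalizations, offsets, filters, probe set rules and thresholds, eBayes with trend and robust settings, a replicate block, each pair on its own arrays and omission of each array.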

Additional observations from a re-analysis of the deposited data

Results flagged for a closer look

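For 21 of the 35 genes named by rule, the difference between a v carrier and a non-carrier genotype was not the same in the fertile pair (f/v minus WT) as in the sterile pair (2/v minus Pb/2) by the interaction test (limma adjusted p below 0.05, which 24.8% of all genes passed). The values below are the fertile pair's difference minus that of the sterile pair, on the log2 scale.

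Among genes lower in carriers, the fall was larger in the fertile pair for CG42565 (-6.26), Bace (-3.50), CG14879 (-3.08), Jon65Aiii (-2.82), betaTry (-2.54), CG18545 (-1.53), CR44101 (-1.48), CG17977 (-1.40), Listericin (-0.82), Obp99a (-0.79) and Caf1-55 (-0.69). Among genes higher in carriers, the rise was larger in the fertile pair for mthl8 (2.29), CG6171 (2.29), CG34323 (1.64), CG14868 (1.45), beta3GalTII (1.14) and mth (0.95). It was larger in the sterile pair for RpS10a (-2.73), Tektin-C (-1.44) and lncRNA:CR32368 (-0.47). Rbp9, not called in the v contrast, differed by -0.58. The values of CG42565, Listericin, Tektin-C and mthl8 include a group below background, so their size depends on the offset of 16. Other dim genes depend on it too. The v contrast of Bace was -3.78 with an offset of 1 and -2.76 with 64, and that of betaTry -3.04 and -1.92. What sets the pairs apart was not tested.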

How the results depend on the processing

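None of the 33 named called genes changed direction in 817 gene and setting combinations, which leave out the requirement of at least 2-fold in each pair. In 683 of them the call in all 4 pairs held and in 134 it ended. The call was kept in all of these settings by 16 genes, of which 10 also met the 2-fold requirement. The count of genes called in all 4 pairs (178) was 95 with array medians subtracted, 43 (14 higher, 29 lower) when scaled to the hybridization controls, 107 with no filter, 70 with each pair fitted on its own arrays, 46 at an adjusted p below 0.01 and 12 with at least 2-fold in each pair. Scaling to the hybridization controls moved the median v contrast of all genes to -0.13, from 0.019 with quantile normalization. On the deposited values 158 genes were called, 58 higher and 100 lower, and 127 were among the 178. Without 1 array the count ran from 86 to 161. The v contrast called 1936 genes at an adjusted p below 0.01 and 222 with at least 2-fold, against 3254, and 2765 to 3277 without 1 array. The interaction called 1328 at an adjusted p below 0.01, against 2260, and 1888 to 2194 without 1 array. The share on chromosome 3 stayed between 55.3 and 64.1% in every setting that gave one. The cause of these changes was not tested, except that stricter thresholds call fewer genes by construction.

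A replicate block, for arrays that share only a number, gave 101 genes called in all 4 pairs, 98 of them among the 178, 2829 in the v contrast and 1906 in the interaction; 3 of 12 arrays correlated best with an array of their own number. Signals below background give fitted values that shift with the offset, and the number of arrays limits small changes.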

Other observations

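Of 2237 probe sets without a gene symbol that passed the filter, 9 (0.402%) were called in all 4 pairs, 4 higher and 5 lower in v carriers, with v contrasts of up to 2.40 and down to -1.73. On the gene order of Release 6 plus ISO1 MT, 6 pairs of called genes lay within 2 places of each other among the genes tested. In 4 of them both genes went the same way, namely Rbfox1 (-0.32) and hay (-0.39) on 3L, and CG6171 (1.60) and CG14868 (1.45), Smug (0.83) and CG5292 (0.44), and Esyt2 (-0.68) and REPTOR (-0.60) on 3R. In Arl8 (0.47) and CG7800 (-0.60), and in Brf (0.70) and sds22 (-0.24), they went opposite ways. These pairs were picked out after their values were seen and were not tested. Of the genes tested 2.84% were called on 3L and 2.63% on 3R, and how many such pairs those shares alone would give was not worked out.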
